A study of Penicillium oxalicum with 9 samples.

Results

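Genes of glycolysis, the citrate cycle and the glyoxylate cycle were followed in the filamentous fungus Penicillium oxalicum, together with the alcohol dehydrogenases and other genes whose enzyme names share the same words. Members were the genes whose deposited KEGG orthology text held at least 1 of 19 enzyme names, such as hexokinase, enolase, pyruvate, aconitate or malate dehydrogenase. A text for a protein kinase was left out, which removed 1 gene. The rule used no measured value and gave 131 of the 9907 genes in the table. By their descriptions 66 of them belong to 6 pathway roles, which are upper and lower glycolysis, gluconeogenesis with the refilling reactions, the fates of pyruvate, the citrate cycle and the glyoxylate cycle. Another 32 are described as alcohol dehydrogenases, and 33 match a word of the rule but act elsewhere in metabolism. The descriptions are automated, and 20 members carry more than 1, so each names a likely enzyme whose activity was not measured here.

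The 9 libraries are 3 of the wild type 114-2, 3 of a clrB deletion and 3 of an rcoA deletion. Background knowledge gives ClrB as a transcription factor that switches on genes for cellulases, and RcoA as the fungal counterpart of the yeast corepressor Tup1. All 3 strains were grown as mycelia for 22 h at 30 °C on 2% glucose and then kept for 24 h in Mandel's medium, with wheat bran and cellulose at 1% each as carbon source, so no group was harvested on glucose. The sources used here do not say how many independent transformants stand behind a deletion, nor whether its 3 libraries stem from cultures grown apart. The p-values therefore reflect the spread among these libraries alone, and that spread may be technical.

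Glycolysis splits glucose into pyruvate and ends in a few steps that yield energy. The citrate cycle oxidises the acetyl-CoA made from pyruvate, and gluconeogenesis runs the other way, through PEP carboxykinase and fructose-1,6-bisphosphatase, when sugars must be built from smaller molecules. The glyoxylate cycle, with isocitrate lyase and malate synthase, lets fungi grow on acetate or fatty acids by skipping the steps that release carbon dioxide. On cellulose, fungi feed on the glucose and cellobiose that secreted enzymes release.

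Levels are FPKM (fragments mapped to a gene, scaled for transcript length and for the size of the library), which the authors computed and deposited. The libraries are of short tags cut at a fixed site of each transcript, so a comparison of levels between genes is uncertain. The depth of the libraries is unknown, because the values are not counts, and FPKM summed to between 776855 and 820648 per library, of which the members held 1.43% to 1.90%. Changes are differences of log2(FPKM + 1) with their standard error (SE), tested with limma in 1 fit over all 9 libraries and called where the p adjusted over all tested genes was under 0.05. On this scale the change of a gene with a low level is understated. Of the 131 members 120 had a mean of at least 1 FPKM and were tested, and the other 11 read between 0 and 2.36 FPKM in single libraries. Where families hold near-identical copies, tags could not always be assigned to 1 of them, which makes such values less certain.

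The library labels were compared with the levels of genes described as ClrB and TUP1. The gene described as ClrB (PDE_05999) had a mean of 185 FPKM in the wild type, against 0.10 and 63.3 with clrB and rcoA deleted. Among the genes described as TUP1, PDE_01024 stood at 67.8, 67.3 and 2.71 FPKM in the wild type, clrB deletion and rcoA deletion. The labels do not give the identifier of rcoA, so this low level cannot by itself check the rcoA label. In the clrB deletion, replicate 2 was the least like its fellow libraries 1 and 3, with correlations over all tested genes of 0.946 and 0.957, while those correlated at 0.991. For 70 of the 120 tested members (58.3%) it was the clrB library nearest to the wild type mean, against 47.1% of all tested genes. The labelled material is mycelium. Of 5 genes in a list of asexual spore formation, summed FPKM was 168 to 299 in the wild type, 325 to 725 in the clrB deletion with replicate 2 lowest, and 257 to 335 in the rcoA deletion. The gene described as FlbD (PDE_03008) weighs most in these sums, with means of 179, 323 and 272 FPKM in the same order. Of the 4 tested, 2 rose and 0 fell in the clrB deletion, and 0 rose and 2 fell in the rcoA deletion, where the scytalone dehydratase PDE_09236 was listed at 0 in each library. The other that fell there, PDE_04496 of the same description, went from a mean of 45.4 to 0.48 FPKM. Of all tested genes 21.8% (clrB) and 64.5% (rcoA) were called. The part of spore formation and of replicate 2 in the clrB results was not tested.

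In the clrB deletion 21 of the 120 tested members rose and 5 fell, or 21.7%. Over all 9097 tested genes 21.8% were called, 13.5% higher and 8.32% lower. The median log2 change was 0.20 for the tested members and 0.08 for all tested genes. Called changes of at least 2-fold were found for 3 members, 1 higher and 2 lower, where 4.78% of all tested genes had one. Within the pathway roles 18 of 61 rose and 1 fell (31.1%, against 21.8% of all tested genes). The share of member calls that were higher was 80.8%. It was 68.2% with trimmed mean factors or with libraries set to equal medians, and 69.2% after quantile normalization. The share over all called genes moved with it, from 61.9% to 47.1%, 49.9% and 49.2% under trimmed mean factors, equal medians and quantile normalization. The count of 26 depended on single libraries. It was 54 without clrB deletion replicate 2, 10 and 15 without clrB deletion replicates 3 and 1, 13 and 14 without wild type replicates 1 and 2, and 16 without rcoA deletion replicate 2. In these bulk samples fewer cells with a transcript and less transcript per cell cannot be told apart.

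In the rcoA deletion 55 of the 120 tested members rose and 27 fell, or 68.3%. Over all tested genes 64.5% were called, 30.4% higher and 34.1% lower, so the share of members called was near the background. Of the member calls 67.1% were higher, against 47.1% of all calls. The median log2 change was 0.33 for the tested members and -0.04 for all tested genes. Called changes of at least 2-fold were found for 16 members that rose and 7 that fell, where 27.0% of all tested genes had one in either direction. Within the pathway roles 35 of 61 rose and 7 fell (68.9%, near the 64.5% of all tested genes).

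**Figure D1:**
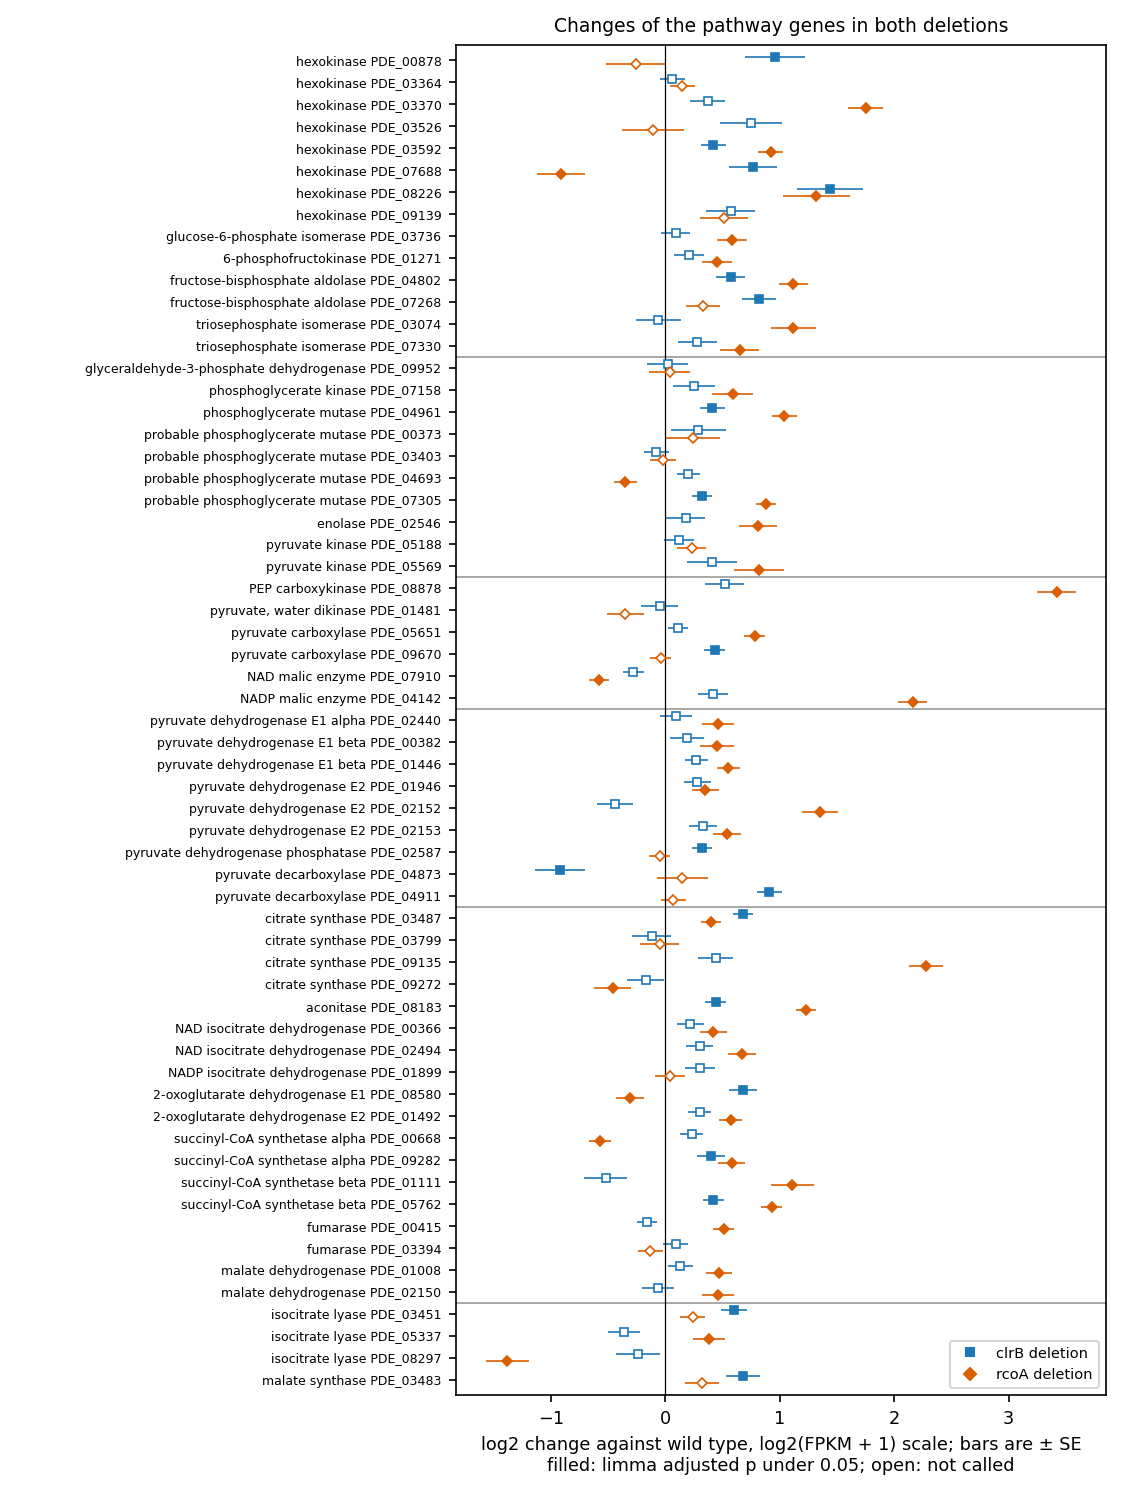
log2 change against the wild type with its SE (horizontal axis, log2(FPKM + 1) scale) for the 61 tested genes of the pathway roles, with horizontal lines between roles. Blue squares are the clrB deletion and orange diamonds the rcoA deletion, filled where called. PEP carboxykinase lies farthest to the right at 3.42 in the rcoA deletion, and isocitrate lyase PDE_08297 farthest to the left at -1.38.

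Upper glycolysis starts with hexokinase, which traps glucose in the cell as glucose 6-phosphate. The rule found 8 genes described as hexokinases, and they did not move together. PDE_08226 read 21.1, 21.0 and 24.7 FPKM in the wild type, 86.2, 37.3 and 72.9 in the clrB deletion and 50.6, 48.0 and 76.1 in the rcoA deletion. All deletion libraries lay above all wild type libraries, with replicate 2 the lowest of the clrB deletion. It rose by 1.44 on the log2 scale in the clrB deletion (SE 0.29, adjusted p = 0.011), the one pathway gene called at 2-fold or more there, and by 1.32 in the rcoA deletion (SE 0.29, adjusted p = 0.00322).

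PDE_07688 moved in opposite directions. It read 41.9, 47.3 and 52.8 FPKM in the wild type, 95.8, 55.9 and 99.3 in the clrB deletion and 21.8, 23.4 and 28.9 in the rcoA deletion. The 3 strains did not overlap, with the clrB deletion highest and the rcoA deletion lowest. The changes were 0.77 (SE 0.21, adjusted p = 0.0338) and -0.91 (SE 0.21, adjusted p = 0.00457), and the strains differed from each other by 1.68 (SE 0.21, adjusted p = 0.000148). The first of these calls was lost under several alternatives. Among them were the fits without wild type replicates 1, 2 or 3, clrB deletion replicates 1 or 3 or rcoA deletion replicate 2. Its adjusted p over all 19 alternatives ran from 0.000629 to 0.125.

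PDE_03370 read 50.01 to 58.3 FPKM in the wild type, 57.8 to 77.4 in the clrB deletion and 148 to 205 in the rcoA deletion, which lay above both other strains. It rose 3.43-fold in the rcoA deletion (log2 change 1.75, SE 0.15, adjusted p = 1.3e-05) and had the highest level of the 8 in each rcoA library, with 29.0% to 40.8% of their summed FPKM. In the wild type the highest was PDE_00878 or PDE_03592, and in the clrB deletion PDE_00878. PDE_00878 read 66.1, 81.4 and 88.8 FPKM in the wild type and 186, 111 and 174 in the clrB deletion, without overlap, and 51.4, 56.3 and 96.2 in the rcoA deletion, which overlapped the wild type. Its change in the clrB deletion was 0.96 (SE 0.26, adjusted p = 0.0332). That call was lost without wild type replicates 1, 2 or 3, clrB deletion replicates 1 or 3 or rcoA deletion replicate 2, with adjusted p from 0.00501 to 0.116 over the alternatives. PDE_03592 rose in both deletions, by 0.42 (adjusted p = 0.0269) and 0.92 (adjusted p = 7.8e-05). Its clrB call was lost without wild type replicates 1 or 2, clrB deletion replicates 1 or 3 or rcoA deletion replicate 2, and under 3 other alternatives, with adjusted p from 0.0161 to 0.0865. The other 3 hexokinases (PDE_03364, PDE_03526 and PDE_09139) were not called against the wild type.

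**Figure D2:**
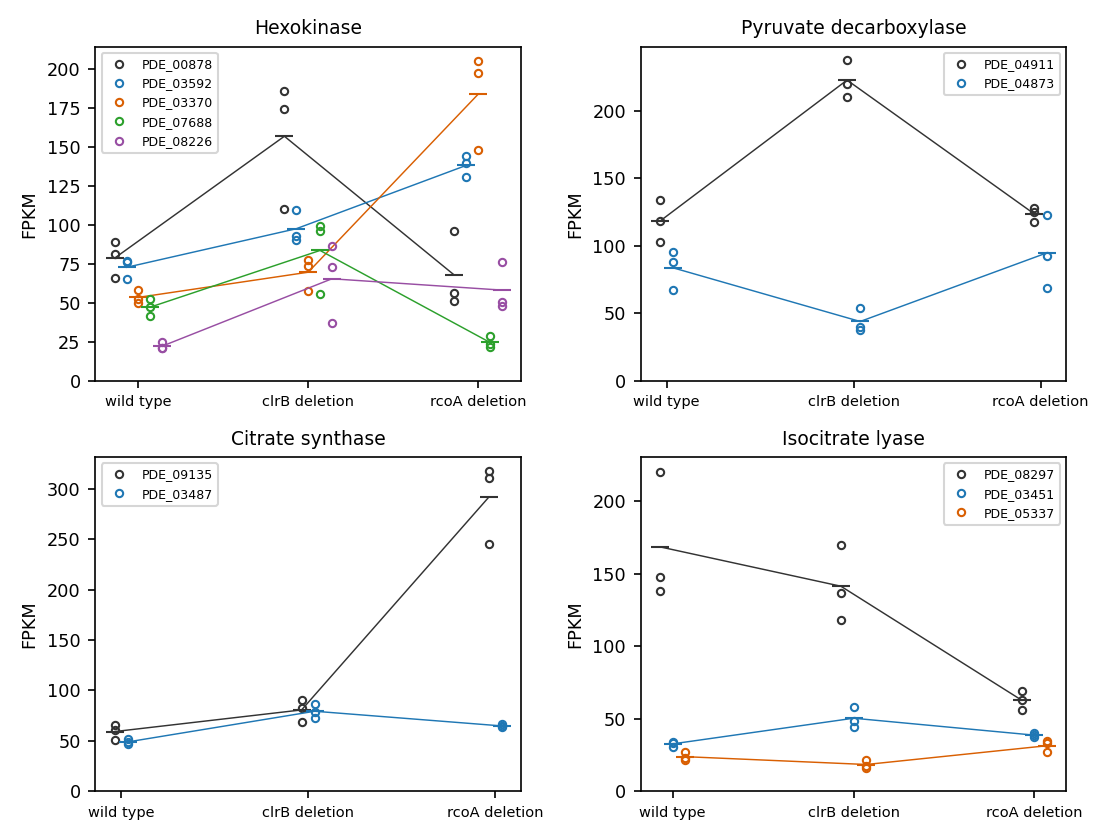
FPKM (vertical axis, from 0) of chosen genes of 4 enzymes in the 3 strains, with each circle a library, each short bar the mean of 3 and thin lines joining the means of 1 gene. Hexokinase PDE_03370 leads in the rcoA deletion and PDE_00878 in the clrB deletion, and the pyruvate decarboxylases part in the clrB deletion to 210 FPKM and above against 54.1 and below.

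Genes of each following step of upper glycolysis were called higher in the rcoA deletion. Glucose-6-phosphate isomerase (PDE_03736), which turns glucose 6-phosphate into fructose 6-phosphate, read 108 to 128 FPKM in the wild type, 113 to 151 in the clrB deletion and 168 to 189 in the rcoA deletion. It was called in the rcoA deletion (log2 change 0.58, SE 0.13, adjusted p = 0.00326), where it lay above both other strains. The single gene for 6-phosphofructokinase (PDE_01271), the committed step, read 54.2 to 55.0, 60.3 to 66.8 and 61.8 to 91.6 FPKM in the same order. It rose by 0.45 in the rcoA deletion (SE 0.13, adjusted p = 0.0135), and its 0.21 in the clrB deletion was not called (adjusted p = 0.271), although no library overlapped the wild type.

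Fructose-bisphosphate aldolase, which cuts the sugar into 2 triose phosphates, had a strongly expressed gene that rose in both deletions. PDE_04802 read 337, 275 and 309 FPKM in the wild type, 510, 420 and 441 in the clrB deletion and 690, 703 and 604 in the rcoA deletion. The 3 strains formed 3 separate groups in that order. The log2 changes were 0.57 (SE 0.13, adjusted p = 0.0151) and 1.12 (SE 0.13, adjusted p = 5.93e-05), and the clrB call was lost without wild type replicate 2 or clrB deletion replicate 3, at adjusted p of 0.0559 and 0.0516 (0.00556 to 0.0559 over the alternatives). The less expressed aldolase PDE_07268, chosen after its values were seen, read 10.9 to 12.4 FPKM in the wild type and 16.6 to 24.8 in the clrB deletion, where it rose (0.82, SE 0.15, adjusted p = 0.00688), and 13.0 to 15.4 in the rcoA deletion, where it was not called (adjusted p = 0.077).

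Triosephosphate isomerase, which interconverts the trioses, is given 2 genes. PDE_07330 read 154 to 198 FPKM in the wild type, 170 to 273 in the clrB deletion and 270 to 284 in the rcoA deletion, and rose in the last (0.65, SE 0.17, adjusted p = 0.00717). PDE_03074 read 14.7 to 22.1, 15.1 to 22.6 and 34.8 to 49.9 FPKM, and rose by 1.12 in the rcoA deletion (SE 0.20, adjusted p = 0.000986). Both were not called in the clrB deletion, where their libraries overlapped the wild type. In all, 6 of the 14 genes of upper glycolysis rose and 0 fell in the clrB deletion, and 8 rose and 1 fell in the rcoA deletion. These are 42.9% and 64.3%, against 21.8% and 64.5% of all tested genes.

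Lower glycolysis opens with glyceraldehyde-3-phosphate dehydrogenase, the oxidation step. PDE_09952 had the highest level of the glycolysis genes, with 1061, 796 and 865 FPKM in the wild type, 1166, 775 and 851 in the clrB deletion and 953, 927 and 894 in the rcoA deletion. All strains overlapped, and the log2 changes were 0.02 and 0.04 (SE 0.18 each, adjusted p = 0.932 and 0.863). Of the other 9 tested genes of lower glycolysis 5 rose and 1 fell in the rcoA deletion. The 1 that fell, the probable phosphoglycerate mutase PDE_04693, read 27.3 to 32.7 FPKM in the wild type and 22.3 to 24.7 there (-0.35, SE 0.10, adjusted p = 0.0147), a call lost without wild type replicate 2 or rcoA deletion replicate 2 (adjusted p up to 0.0571 over the alternatives). Phosphoglycerate kinase (PDE_07158), which makes ATP, read 133 to 159 FPKM in the wild type and 217 to 229 in the rcoA deletion (0.59, SE 0.18, adjusted p = 0.0168), a call lost without wild type replicate 2 (adjusted p = 0.0607, the highest of the alternatives).

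Phosphoglycerate mutase (PDE_04961), which moves the phosphate group within the molecule, read 50.8, 48.4 and 50.4 FPKM in the wild type, 76.7, 57.1 and 67.9 in the clrB deletion and 102, 103 and 105 in the rcoA deletion. The strains did not overlap, and the wild type and rcoA libraries each lay close together. The changes were 0.41 (SE 0.11, adjusted p = 0.0271) and 1.04 (SE 0.11, adjusted p = 3.52e-05). The clrB call was lost without wild type replicates 1, 2 or 3, clrB deletion replicates 1 or 3 or rcoA deletion replicate 2, and with only both strains in the fit, with adjusted p from 0.00208 to 0.097 over the alternatives. Another 4 tested genes are described as probable phosphoglycerate mutases, a wording that also covers other phosphatases of that fold.

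Enolase (PDE_02546), which makes phosphoenolpyruvate, read 210, 166 and 190 FPKM in the wild type, 278, 172 and 200 in the clrB deletion and 340, 329 and 323 in the rcoA deletion. The rcoA libraries lay above all others, and the clrB libraries overlapped the wild type. It rose in the rcoA deletion (0.81, SE 0.17, adjusted p = 0.00241). Pyruvate kinase, the last step, had a higher gene, PDE_05188, at 110 to 134, 108 to 138 and 126 to 146 FPKM, with no call in either deletion (adjusted p = 0.539 and 0.143). The other gene described as pyruvate kinase, PDE_05569, carries 2 descriptions. It read 54.8, 52.7 and 56.1 FPKM in the wild type, 85.6, 55.1 and 80.7 in the clrB deletion and 72.2, 96.3 and 129.6 in the rcoA deletion, where it rose (0.82, SE 0.22, adjusted p = 0.00923) without overlap. The clrB libraries overlapped the wild type, with no call (0.41, adjusted p = 0.205). In all, 2 of the 10 tested genes of lower glycolysis rose and 0 fell in the clrB deletion. In the rcoA deletion 5 rose and 1 fell. Both called shares were near, and not above, the 21.8% and 64.5% of all tested genes.

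**Figure D3:**
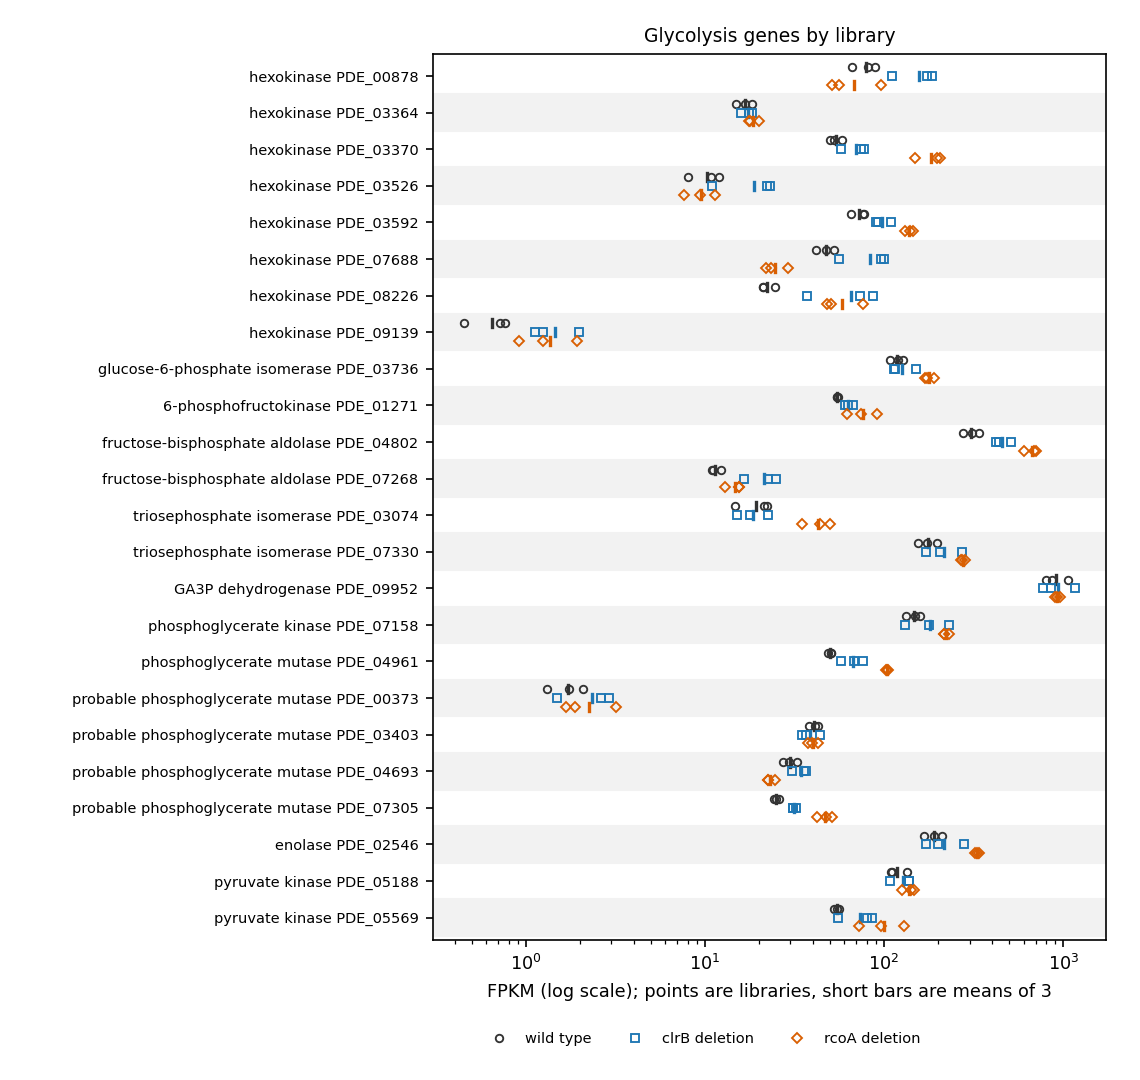
FPKM (horizontal axis, log scale) of the 24 tested glycolysis genes, 1 row each from hexokinase to pyruvate kinase. Open symbols are libraries and short bars the means of 3. Glyceraldehyde-3-phosphate dehydrogenase sits between 775 and 1166 FPKM in every strain, while enolase in the rcoA deletion sits above 320 FPKM and above the other strains.

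Over upper and lower glycolysis 8 of 24 tested glycolysis genes rose and 0 fell in the clrB deletion, with a median log2 change of 0.30. The 8 became 13 without clrB deletion replicate 2, 3 and 2 without clrB deletion replicates 1 and 3, 3, 2 and 4 without wild type replicates 1, 2 and 3, and 3 without rcoA deletion replicate 2. In the rcoA deletion 13 rose and 2 fell, with a median of 0.54. The called shares were 33.3% (clrB) and 62.5% (rcoA), against 21.8% and 64.5% of all tested genes. Shares called higher were 33.3% and 54.2%, against 13.5% and 30.4% of all tested genes.

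The largest rise of the pathway genes was in gluconeogenesis. PEP carboxykinase (PDE_08878), which starts gluconeogenesis by turning oxaloacetate into phosphoenolpyruvate, read 110, 110 and 134 FPKM in the wild type. It read 141, 216 and 156 in the clrB deletion and 1136, 1399.6 and 1274 in the rcoA deletion. The rcoA libraries were each more than 5 times the highest library of the other strains, and the clrB libraries also lay above the wild type. The rise in the rcoA deletion was 10.8-fold (log2 change 3.42, SE 0.17, adjusted p = 4.19e-07). The change of 0.52 in the clrB deletion was not called (SE 0.17, adjusted p = 0.0563).

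Fructose-1,6-bisphosphatase, the enzyme that undoes the phosphofructokinase step, is not among the 131 genes, because its description is worded differently, and it was looked at after values were seen. PDE_08481 read 13.8, 17.1 and 22.3 FPKM in the wild type, 86.3, 104 and 102 in the clrB deletion and 337, 355 and 332 in the rcoA deletion. The strains formed 3 groups far apart, and replicate 2 of the clrB deletion did not stand apart from replicates 1 and 3. It rose 5.51-fold in the clrB deletion (log2 change 2.42, SE 0.16, adjusted p = 2.72e-05) and 19.3-fold in the rcoA deletion (4.22, SE 0.16, adjusted p = 9e-08). For phosphofructokinase, the opposing step, the values were 0.21, which was not called, and 0.45.

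The refilling reactions and the malic enzymes went both ways. Pyruvate carboxylase, which makes oxaloacetate from pyruvate, had PDE_05651 at 93.3 to 109 FPKM in the wild type, 103 to 114 in the clrB deletion and 165 to 181 in the rcoA deletion, where it rose (0.78, SE 0.09, adjusted p = 7.69e-05). A second gene, PDE_09670, chosen after its values were seen, read 21.1 to 24.0, 29.6 to 32.4 and 20.7 to 23.8 FPKM. It rose in the clrB deletion (0.43, SE 0.09, adjusted p = 0.0129) and was not called in the rcoA deletion (-0.04, adjusted p = 0.746). The NADP malic enzyme (PDE_04142), which makes NADPH from malate, read 32.4, 36.1 and 35.2 FPKM in the wild type, 42.7, 53.9 and 43.6 in the clrB deletion and 134, 168 and 176 in the rcoA deletion. Its rise in the rcoA deletion was 4.60-fold (2.16, SE 0.13, adjusted p = 1.37e-06), and 0.42 in the clrB deletion missed the threshold at adjusted p = 0.0501. The NAD malic enzyme PDE_07910, chosen after its values were seen, fell in the rcoA deletion from 78.1 to 92.2 FPKM to 53.2 to 56.7 (-0.58, SE 0.09, adjusted p = 0.000335). Of the 6 tested genes in this role 1 rose in the clrB deletion, and 3 rose and 1 fell in the rcoA deletion. These are 16.7% and 66.7%, near the 21.8% and 64.5% of all tested genes.

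**Figure D4:**
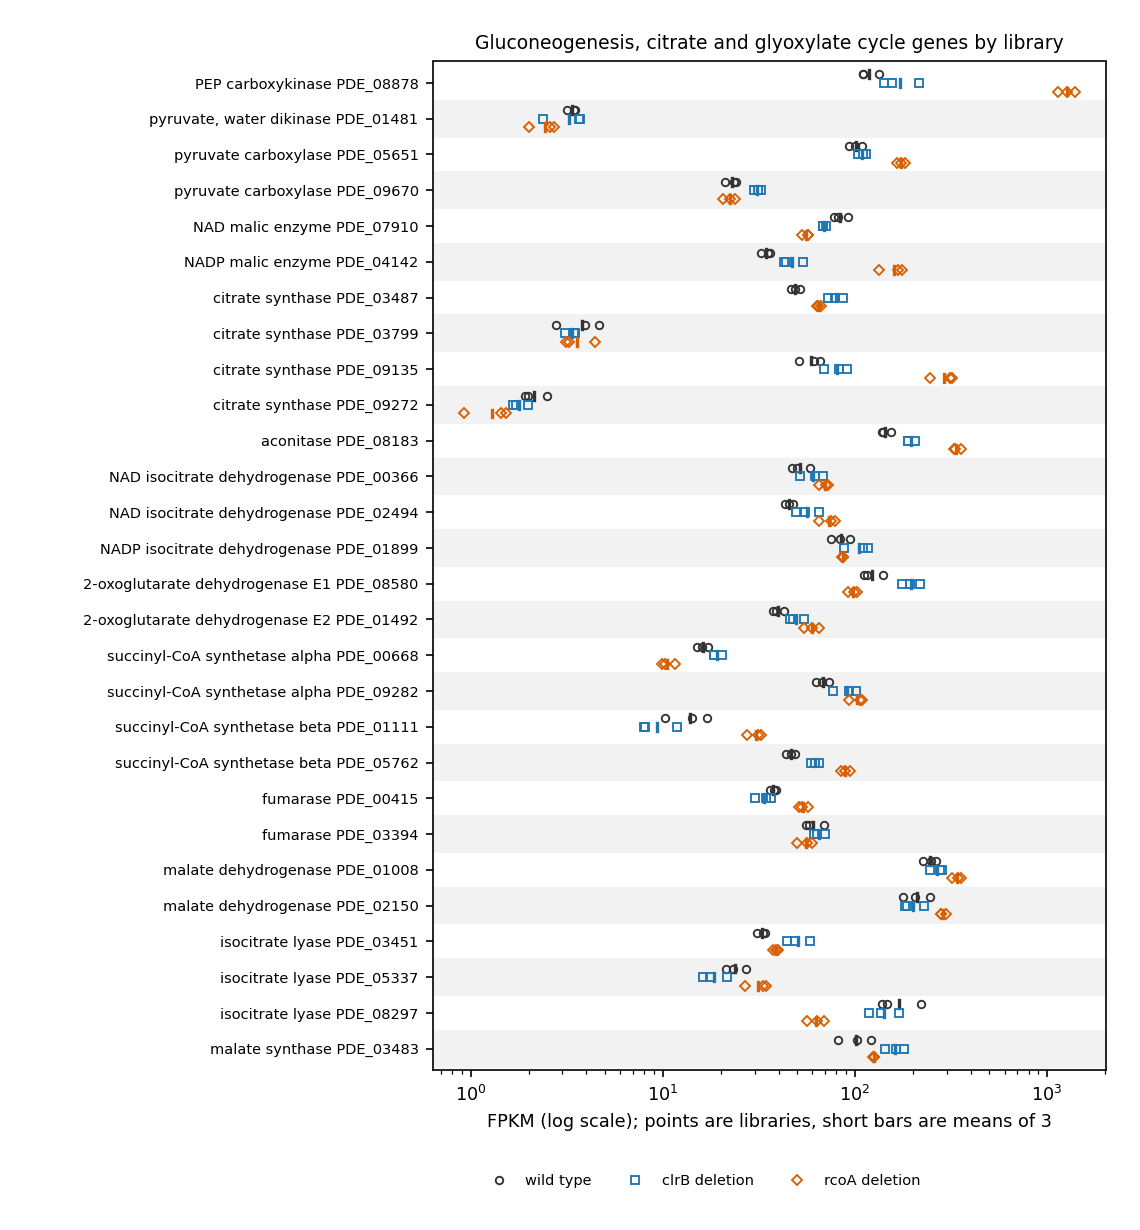
FPKM (horizontal axis, log scale) of the 28 tested genes of gluconeogenesis and refilling, the citrate cycle and the glyoxylate cycle, with open symbols for libraries and short bars for means of 3. PEP carboxykinase in the rcoA deletion, at 1136 FPKM and above, stands to the right of all others. Isocitrate lyase PDE_08297 reads lower in the rcoA deletion, at 55.9 to 69.2 FPKM, than in the other strains.

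Pyruvate is either oxidised to acetyl-CoA by the pyruvate dehydrogenase complex or split to acetaldehyde by pyruvate decarboxylase. Subunit genes of the complex were called higher in the rcoA deletion. The E1 alpha gene (PDE_02440), part of the subunit that binds pyruvate, read 81.3, 54.3 and 61.5 FPKM in the wild type and 91.2, 86.6 and 90.2 in the rcoA deletion. These groups did not overlap (0.46, SE 0.14, adjusted p = 0.0153), and the call was lost without wild type replicates 2 or 3 (adjusted p = 0.055 and 0.0513, where 0.055 is the highest of the alternatives). The E2 gene PDE_02153, the acetyl carrier of the complex, read 73.8 to 92.4, 92.0 to 116 and 108 to 127 FPKM, and rose in the rcoA deletion (0.54, SE 0.12, adjusted p = 0.00437).

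Another gene, PDE_02152, has 3 descriptions of which E2 is 1, so its identity is uncertain. It read 398, 403 and 509 FPKM in the wild type, 305, 328 and 325 in the clrB deletion and 1293, 1172 and 904 in the rcoA deletion. The clrB libraries lay below and the rcoA libraries above the wild type, with a called rise of 1.35 in the rcoA deletion (SE 0.16, adjusted p = 7.04e-05) and an uncalled -0.44 in the clrB deletion (adjusted p = 0.0739). Its strain-to-strain difference of -1.80 between the clrB and rcoA deletions was called (SE 0.16, adjusted p = 1.42e-05).

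The pyruvate decarboxylases, which lead to ethanol, parted in the clrB deletion. PDE_04911 read 103, 118 and 134 FPKM in the wild type, 220.1, 210.4 and 237 in the clrB deletion and 118, 128 and 125 in the rcoA deletion. PDE_04873 read 95.4, 67.5 and 88.1 FPKM in the wild type, 40.2, 54.1 and 37.6 in the clrB deletion and 123, 92.6 and 69.0 in the rcoA deletion. In both genes the clrB libraries lay apart from the wild type, above it in the first and below it in the second, while the rcoA libraries overlapped it. PDE_04911 rose by 0.91 (SE 0.11, adjusted p = 0.00118) and kept its call under the 19 alternatives. PDE_04873 fell by 0.92 (SE 0.22, adjusted p = 0.0223), and its call was lost without wild type replicates 1 or 3 or clrB deletion replicates 1 or 3 (adjusted p from 0.00579 to 0.088 over the alternatives). PDE_04911 held 51.9% to 63.6% of their summed FPKM in the wild type and 79.5% to 86.3% in the clrB deletion.

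The phosphatase that switches pyruvate dehydrogenase on (PDE_02587) read 41.1 to 44.5 FPKM in the wild type, 53.3 to 54.5 in the clrB deletion and 39.0 to 46.3 in the rcoA deletion. Its rise of 0.32 in the clrB deletion (SE 0.09, adjusted p = 0.0342) was lost under 11 alternatives, among them the fits without wild type replicates 1, 2 or 3, clrB deletion replicates 1 or 3 or rcoA deletion replicate 2 (adjusted p from 0.0285 to 0.113 over the alternatives). Of the 9 tested genes in this role 2 rose and 1 fell in the clrB deletion (33.3%, against 21.8% of all tested genes). In the rcoA deletion 6 rose and 0 fell (66.7%, near the 64.5% of all tested genes). The 6 became 3 without wild type replicate 3.

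In the citrate cycle 12 of 18 tested genes were called higher and 3 lower in the rcoA deletion. The median log2 change was 0.47 and the called share 83.3%, against 64.5% of all tested genes. In the clrB deletion 5 rose and 0 fell (27.8%, against 21.8% of all tested genes), with a median of 0.26. Without clrB deletion replicate 2 these counts were 10 and 1, and without clrB deletion replicate 3 they were 3 and 0. Citrate synthase, the entry to the cycle, showed the largest rise. PDE_09135 read 65.6, 51.1 and 60.9 FPKM in the wild type, 90.9, 69.0 and 82.2 in the clrB deletion and 245, 311 and 318 in the rcoA deletion. The rcoA libraries stood far above both other strains (4.92-fold over the wild type, log2 change 2.28, SE 0.15, adjusted p = 2.16e-06), and the 0.44 in the clrB deletion was not called (adjusted p = 0.0632). The second citrate synthase PDE_03487, chosen after its values were seen, ranked the strains otherwise. It read 46.6 to 51.8 FPKM in the wild type, 72.7 to 86.4 in the clrB deletion and 63.5 to 66.6 in the rcoA deletion, and was called in both (0.68, adjusted p = 0.0017, and 0.40, adjusted p = 0.00367). PDE_09135 held 48.0% to 55.1% of the summed FPKM of the 5 genes described as citrate synthases in the wild type and 78.1% to 81.8% in the rcoA deletion.

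Aconitase (PDE_08183), which turns citrate into isocitrate, read 137, 139 and 154 FPKM in the wild type, 206, 189 and 188 in the clrB deletion and 327, 354 and 329.8 in the rcoA deletion. The strains formed 3 separate groups, and both rises were called under each of the 19 alternatives, at 0.44 (SE 0.09, adjusted p = 0.0124) and 1.23 (SE 0.09, adjusted p = 4.72e-06). The next step of the cycle, NAD isocitrate dehydrogenase, has 2 genes, and both rose in the rcoA deletion. PDE_02494 read 43.2 to 47.8 FPKM in the wild type, 49.2 to 65.3 in the clrB deletion and 65.3 to 78.3 in the rcoA deletion (0.67, SE 0.12, adjusted p = 0.00096). PDE_00366 read 46.9 to 58.5, 51.6 to 68.3 and 65.2 to 72.7 FPKM (0.42, SE 0.12, adjusted p = 0.0143), a call lost without wild type replicate 2 or rcoA deletion replicate 2 (adjusted p up to 0.0556 over the alternatives). Neither was called in the clrB deletion (adjusted p = 0.0987 and 0.23). The NADP isocitrate dehydrogenase (PDE_01899) read 74.9 to 94.7, 87.5 to 116 and 85.8 to 87.0 FPKM, with changes of 0.30 (adjusted p = 0.112) and 0.04 (adjusted p = 0.77).

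The 2-oxoglutarate dehydrogenase complex, which makes succinyl-CoA, had subunits that moved differently. The E1 gene (PDE_08580) read 111, 115 and 140 FPKM in the wild type, 193, 175 and 217 in the clrB deletion and 91.5, 99.2 and 103 in the rcoA deletion. The strains did not overlap, with the clrB deletion highest and the rcoA deletion lowest. Its rise in the clrB deletion was 0.68 (SE 0.12, adjusted p = 0.00678). Its fall in the rcoA deletion was -0.31 (SE 0.12, adjusted p = 0.0467), and that call was lost under 9 of 19 alternatives, among them the fits without wild type replicates 2 or 3, clrB deletion replicate 1 or any of the rcoA deletion replicates, with adjusted p up to 0.165. Between the deletions it differed by 0.98 (SE 0.12, adjusted p = 0.000114). The E2 gene (PDE_01492) read 37.6 to 42.7, 46.1 to 53.9 and 54.5 to 64.7 FPKM, and rose in the rcoA deletion (0.57, SE 0.10, adjusted p = 0.000933).

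Succinyl-CoA synthetase forms ATP or GTP and succinate from 2 kinds of subunit. The beta gene PDE_01111 read 16.9, 14.2 and 10.2 FPKM in the wild type, 7.97, 11.8 and 8.08 in the clrB deletion and 32.4, 31.1 and 27.5 in the rcoA deletion. The clrB libraries overlapped the wild type and were not called (-0.52, adjusted p = 0.0848), and the rcoA libraries lay above both (1.11, SE 0.19, adjusted p = 0.000854). The other beta gene, PDE_05762, chosen after its values were seen, rose in both deletions, from 43.5 to 48.6 FPKM to 58.7 to 65.0 (0.42, adjusted p = 0.0117) and to 84.7 to 94.2 (0.93, adjusted p = 1.68e-05). Its clrB call was lost without clrB deletion replicate 3 (adjusted p = 0.0516, the highest of the alternatives). The alpha genes went apart in the rcoA deletion. PDE_09282 rose there from 63.0 to 73.6 FPKM to 92.9 to 108 (0.58, SE 0.12, adjusted p = 0.00242), while the weaker PDE_00668 fell from 15.1 to 17.2 FPKM to 9.86 to 11.5 (-0.57, SE 0.10, adjusted p = 0.000685). PDE_00668 was not called in the clrB deletion (0.23, adjusted p = 0.116). PDE_09282 was called there at 76.9 to 102 FPKM (0.40, adjusted p = 0.0468), and that call was lost under 13 of 19 alternatives, among them the fits without any 1 library other than clrB deletion replicate 2 (adjusted p up to 0.146).

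Malate dehydrogenase, which closes the cycle, has 2 genes at similar levels. PDE_01008 read 226 to 263 FPKM in the wild type, 244 to 284 in the clrB deletion and 318 to 358 in the rcoA deletion (0.47, SE 0.11, adjusted p = 0.00362). PDE_02150 read 177 to 247, 182 to 229 and 280.0 to 297 FPKM (0.46, SE 0.14, adjusted p = 0.0165). Both rose in the rcoA deletion and overlapped the wild type in the clrB deletion, and the second call was lost without wild type replicate 2 (adjusted p = 0.0632) and with quantile normalization (adjusted p = 0.0812, the highest of the alternatives).

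The genes of the glyoxylate cycle went both ways. Isocitrate lyase, its first enzyme, splits isocitrate into succinate and glyoxylate. PDE_08297 read 220.1, 138 and 147 FPKM in the wild type, 169, 118 and 137 in the clrB deletion and 63.1, 69.2 and 55.9 in the rcoA deletion. The rcoA libraries lay below all others, and the gene fell 2.68-fold there (log2 change -1.38, SE 0.19, adjusted p = 0.000235), while the clrB libraries overlapped the wild type (adjusted p = 0.405). PDE_03451, a second isocitrate lyase chosen after its values were seen, rose in the clrB deletion from 30.8 to 34.0 FPKM to 44.2 to 58.2 (0.60, SE 0.11, adjusted p = 0.00699). It was not called in the rcoA deletion, at 37.4 to 39.8 FPKM (adjusted p = 0.0798). PDE_08297 held 71.0% to 79.4% of the summed FPKM of the 3 isocitrate lyase genes in the wild type and 43.0% to 49.6% in the rcoA deletion.

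Malate synthase (PDE_03483), the second enzyme, joins glyoxylate and acetyl-CoA. It read 102, 81.6 and 121 FPKM in the wild type, 163, 180 and 143 in the clrB deletion and 125, 126 and 125 in the rcoA deletion. The clrB libraries lay above all others, and the rcoA libraries lay above the wild type by little. It rose in the clrB deletion (0.68, SE 0.15, adjusted p = 0.0139) and was not called in the rcoA deletion (0.32, SE 0.15, adjusted p = 0.0814). Of the 4 genes of this role 2 rose and 0 fell in the clrB deletion, above the 21.8% of all tested genes. In the rcoA deletion 1 rose and 1 fell, so the called share was below the 64.5% of all tested genes. The 1 that rose there, PDE_05337, has 2 descriptions, and its call was lost without wild type replicates 1 or 2, clrB deletion replicate 3 or rcoA deletion replicates 2 or 3 (adjusted p = 0.0384, and up to 0.125 over the alternatives).

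Alcohol dehydrogenases reduce aldehydes to alcohols or the reverse, and in fungi they serve ethanol formation, ethanol use and many side reactions. Of the 32 genes 28 were tested, of which 1 rose and 4 fell in the clrB deletion, and 10 rose and 10 fell in the rcoA deletion. These are 17.9% and 71.4%, near the 21.8% and 64.5% of all tested genes. The median log2 change was -0.01 in each. Among those that rose, PDE_02690, PDE_05556 and PDE_00598 passed the filter of 1 FPKM only through the strain where they rose. The steepest fall among the 28 was in PDE_09616. It read 589, 536 and 603 FPKM in the wild type, 156, 182 and 149 in the clrB deletion and 41.6, 32.1 and 25.1 in the rcoA deletion. The 3 strains were far apart, with replicate 2 of the clrB deletion close to the other two. It fell 3.55-fold (log2 change -1.82, SE 0.17, adjusted p = 0.000237) and 17.5-fold (-4.12, SE 0.17, adjusted p = 1.47e-07), and its description gives no substrate class.

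PDE_09299, described as propanol-preferring, had the highest mean level of the alcohol dehydrogenases in each strain, although PDE_09616 was higher in wild type replicate 2. PDE_09299 read 516 to 666 FPKM in the wild type, 683 to 860 in the clrB deletion and 406 to 522 in the rcoA deletion. It was called against the wild type in neither (adjusted p = 0.178 and 0.0511) and differed between the deletions (0.69, SE 0.15, adjusted p = 0.00399). The next highest of that class, PDE_00833, rose in the rcoA deletion from 212 to 232 FPKM to 282 to 338 (0.43, SE 0.11, adjusted p = 0.00859), a call lost with quantile normalization (adjusted p = 0.058, the highest of the alternatives). PDE_07104 fell in both, from 4.37 to 5.09 FPKM to 1.16 to 2.95 (-1.08, SE 0.24, adjusted p = 0.0156) and to 0.30 to 0.81 (-1.86, SE 0.24, adjusted p = 0.000134). Its clrB call was lost without wild type replicate 1 (adjusted p = 0.0551) or clrB deletion replicate 3 (adjusted p = 0.0632, the highest of the alternatives).

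Other alcohol dehydrogenases rose from low levels in the rcoA deletion. PDE_08971 read 1.62, 1.30 and 1.03 FPKM in the wild type, 2.24, 1.11 and 2.53 in the clrB deletion and 20.4, 28.2 and 32.4 in the rcoA deletion. The rcoA libraries lay far above the rest (20.5-fold over the wild type, log2 change 3.58, SE 0.23, adjusted p = 2.04e-06). PDE_03317, described as dependent on NADP, read 6.47 to 8.13, 4.35 to 9.07 and 31.8 to 61.6 FPKM (6.53-fold in the rcoA deletion, log2 change 2.51, SE 0.27, adjusted p = 4.37e-05). Of the same class PDE_08313 rose from 9.55 to 9.66 FPKM to 19.0 to 35.7 (1.37, SE 0.19, adjusted p = 0.000205), and PDE_05556 from 0.24 to 0.47 FPKM to 2.96 to 6.20 (2.11, SE 0.29, adjusted p = 0.000186). PDE_05556 was tested only because of its rcoA deletion libraries, since its means in the wild type and clrB deletion were 0.357 and 0.65 FPKM. PDE_03747, propanol-preferring, rose from 11.4 to 11.9 FPKM to 21.3 to 27.1 (1.03, SE 0.14, adjusted p = 0.000194). In the clrB deletion none of these 5 was called, and all but PDE_08313 overlapped the wild type.

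A further propanol-preferring gene, PDE_01278, fell in both deletions, from 15.6 to 19.1 FPKM to 10.3 to 15.0 (-0.48, SE 0.14, adjusted p = 0.0362) and to 6.59 to 6.94 (-1.26, SE 0.14, adjusted p = 4.68e-05). The strains did not overlap. Its clrB call was lost with only both strains in the fit, without wild type replicates 1 or 2, without clrB deletion replicates 1 or 3 and without any 1 of the rcoA deletion replicates (adjusted p from 0.00383 to 0.133). The 1 alcohol dehydrogenase that rose in the clrB deletion, PDE_02690, was weakly expressed, at 0.65 to 0.94 FPKM in the wild type and 1.40 to 2.59 there (0.73, SE 0.18, adjusted p = 0.0243). That call was lost without any 1 of the wild type replicates, without clrB deletion replicates 1 or 3 and with only both strains in the fit (adjusted p from 0.00419 to 0.0897). PDE_00598 was also weak and rose in the rcoA deletion, from 0.59 to 0.82 FPKM to 1.76 to 2.34 (0.78, SE 0.18, adjusted p = 0.00368). Both weak genes passed the filter only through the strain where they rose, so the filter itself favoured a rise.

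**Figure D5:**
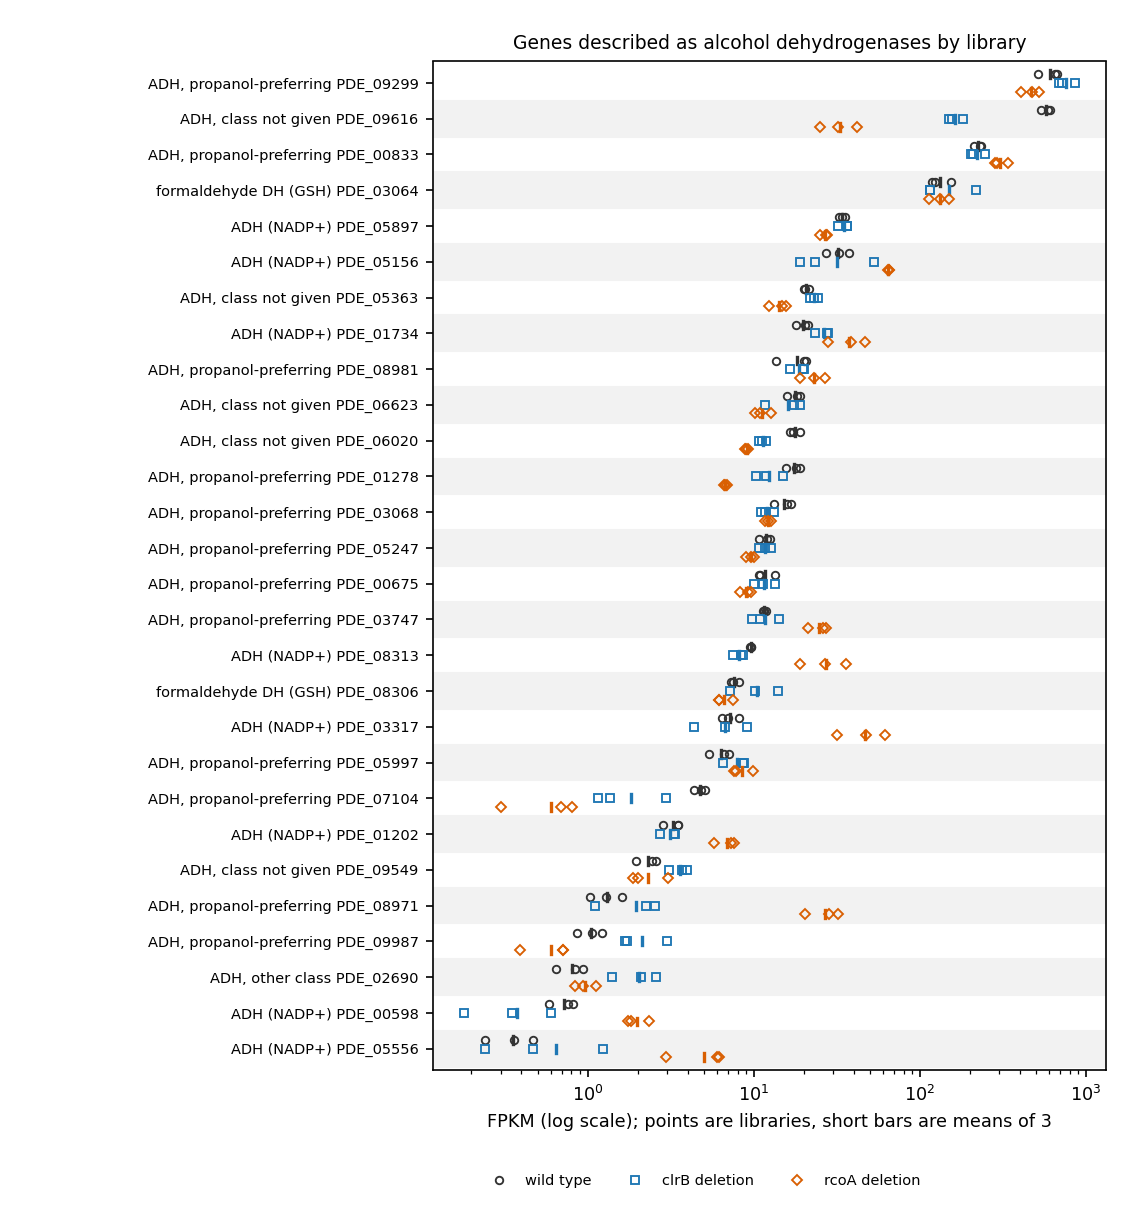
FPKM (horizontal axis, log scale) of the 28 tested genes described as alcohol dehydrogenases (ADH), sorted by wild type mean, with open symbols for libraries and short bars for means of 3. PDE_09616 spreads over the axis from 603 FPKM in the wild type to 25.1 in the rcoA deletion, and PDE_08971 moves the other way, to 20.4 FPKM and above.

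NADP-dependent PDE_05156 and the glutathione-dependent formaldehyde dehydrogenase PDE_03064, which detoxifies formaldehyde, rested on clrB deletion replicate 2 for their spread. PDE_05156 read 19.1, 52.7 and 23.4 FPKM in the clrB deletion against 27.1 to 37.3 in the wild type, and 64.3 to 65.0 in the rcoA deletion. It rose in the rcoA deletion (0.99, SE 0.31, adjusted p = 0.0188), which was lost without wild type replicate 3 (adjusted p = 0.0649, the highest of the alternatives). Without clrB deletion replicate 2 it was lower in the clrB deletion (-0.58, adjusted p = 0.0106, the lowest of the alternatives), against -0.15 with it (adjusted p = 0.751). PDE_03064 read 119 to 154 FPKM in the wild type and 115, 217 and 115 in the clrB deletion, with no call.

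The remaining 33 genes share a word with the rule but act in amino acid, propionate or other metabolism. Of the 31 tested 2 rose and 0 fell in the clrB deletion (6.45%, against 21.8% of all tested genes), and 10 rose and 10 fell in the rcoA deletion (64.5%, the share of all tested genes). Methylisocitrate lyase (PDE_06062), which clears propionyl-CoA, had the widest spread, at 890.5, 495 and 618 FPKM in the wild type, 2761, 129 and 1459 in the clrB deletion and 658, 658 and 385 in the rcoA deletion. Replicate 2 of the clrB deletion lay below and replicates 1 and 3 above every other library, and the gene was not called (adjusted p = 0.833 and 0.837). The dioxygenases for 4-hydroxyphenylpyruvate, an intermediate of tyrosine breakdown, include PDE_09761, the gene with the steepest fall of the members. PDE_09761 read 4959, 5087 and 3815 FPKM in the wild type, 2377, 6379 and 2884 in the clrB deletion and 9.88, 8.60 and 4.17 in the rcoA deletion. The rcoA libraries lay far below the rest (612-fold, log2 change -9.14, SE 0.38, adjusted p = 1.73e-07), and in the clrB deletion only replicate 2 lay above the wild type. A second gene, PDE_08904, read 45.2, 44.4 and 73.2 FPKM in the wild type, 80.7, 93.4 and 87.6 in the clrB deletion and 13.6, 8.58 and 8.00 in the rcoA deletion. The strains did not overlap, with a called fall in the rcoA deletion (5.40-fold, log2 change -2.32, SE 0.23, adjusted p = 2.44e-05) and an uncalled 0.71 in the clrB deletion (adjusted p = 0.052).

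Other genes of that group were called at smaller sizes in the rcoA deletion. The 3-phosphoglycerate dehydrogenase PDE_03282, an enzyme of serine synthesis, carries 3 descriptions and fell from 24.4 to 29.4 FPKM to 7.48 to 9.04 (-1.60, SE 0.14, adjusted p = 1.09e-05). Other genes described as this enzyme went both ways in the rcoA deletion. PDE_08560 rose from 22.1 to 27.7 FPKM to 39.3 to 44.0 (0.69, SE 0.11, adjusted p = 0.000456). PDE_02324 rose from 14.5 to 16.5 FPKM to 22.4 to 24.4 (0.58, SE 0.10, adjusted p = 0.000994). PDE_03272 fell from 63.5 to 68.2 FPKM to 38.7 to 42.9 (-0.65, SE 0.14, adjusted p = 0.00234). PDE_00303 fell by less (-0.28, adjusted p = 0.0491), and PDE_08687 was not called (adjusted p = 0.265). The serine-pyruvate transaminase PDE_07020 rose from 64.1 to 89.6 FPKM to 137 to 152 (0.96, SE 0.14, adjusted p = 0.000297). Homocitrate synthase (PDE_03916), the entry to lysine synthesis in fungi, rose from 39.4 to 42.0 FPKM to 59.8 to 65.1 (0.62, SE 0.18, adjusted p = 0.0123), and the 2-isopropylmalate synthase of leucine synthesis (PDE_00404) from 18.9 to 24.2 FPKM to 37.9 to 42.1 (0.84, SE 0.13, adjusted p = 0.000458). PDE_08560 and PDE_02324 were also called higher in the clrB deletion (adjusted p = 0.0374 and 0.0494), calls lost under 11 and 16 of 19 alternatives, among them the fits without any 1 wild type library (adjusted p up to 0.113 and 0.173). The other genes of this paragraph were not called there.

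Rises below 0.6 in the rcoA deletion were called for acylpyruvate hydrolase (PDE_04491, 0.50, adjusted p = 0.00279) and for a gene described as aconitate decarboxylase (PDE_08623, 0.43, adjusted p = 0.00983). Another 4-hydroxyphenylpyruvate dioxygenase, PDE_06628, was near the floor of the table at 1.44 to 1.90 FPKM in the wild type and 0.50 to 0.82 in the rcoA deletion. Its fall there (-0.67, adjusted p = 0.0332) was lost under 7 of 18 alternatives, among them the fits without any 1 of the wild type replicates or without rcoA deletion replicates 1 or 2 (adjusted p from 0.00455 to 0.718). Hydroxypyruvate reductase (PDE_09043), the activating enzyme of pyruvate formate lyase (PDE_07675) and ketohexokinase (PDE_04548) were called in neither deletion.

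Between the deletions 36 of 120 tested members were higher in the clrB deletion and 43 lower, where 60.1% of all tested genes were called, 35.2% higher and 24.9% lower. The median log2 difference was -0.07 for the tested members and 0.11 for all tested genes. The share of member calls that were higher was 45.6%. It was 37.2% with trimmed mean factors, 34.8% after quantile normalization and 32.5% with libraries set to equal medians. Over all called genes it was 58.6%, and 50.2%, 45.3% and 46.2% under these scalings. Equal medians and quantile normalization moved the median of all genes from 0.108 to -0.036 and -0.052. Because both deletion effects are taken against the same wild type libraries, this comparison tests directly whether they differ. Among the genes named above, PEP carboxykinase was lower in the clrB deletion by 2.90 (adjusted p = 1.25e-06), citrate synthase PDE_09135 by 1.84 (adjusted p = 8.66e-06) and the NADP malic enzyme by 1.74 (adjusted p = 5.73e-06). Isocitrate lyase PDE_08297 was higher by 1.15 (adjusted p = 0.000863), pyruvate decarboxylase PDE_04911 by 0.84 (adjusted p = 0.000184) and alcohol dehydrogenase PDE_09616 by 2.29 (adjusted p = 5.02e-06). Hexokinase PDE_08226 rose in each deletion and did not differ by a call between them (0.11, SE 0.29, adjusted p = 0.749).

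Neighbouring pathways were counted in the same fit, where the share called over all tested genes was 21.8% (clrB) and 64.5% (rcoA). Of 12 genes of the pentose phosphate pathway, which makes NADPH and pentoses from glucose 6-phosphate, 3 rose and 0 fell in the clrB deletion (25.0%), and 8 rose and 1 fell in the rcoA deletion (75.0%). Transketolase PDE_00194 rose in the rcoA deletion from 36.2 to 36.9 FPKM to 126 to 141 (1.82, SE 0.14, adjusted p = 7.2e-06). A second transketolase, PDE_04193, read 193 to 230 FPKM in the wild type and 166 to 367 in the rcoA deletion. It was not called there (0.27, SE 0.25, adjusted p = 0.373). The 1 that fell was a 6-phosphogluconolactonase (PDE_09986), from 76.6 to 87.8 FPKM to 1.33 to 2.31 (-4.83, SE 0.15, adjusted p = 3.9e-08). The other gene with that description, PDE_03036, rose from 63.1 to 78.4 FPKM to 187 to 213 (1.55, SE 0.10, adjusted p = 2.69e-06). Of 18 genes of succinate dehydrogenase, dihydrolipoamide dehydrogenase and citrate lyases 4 rose and 2 fell in the clrB deletion (33.3%), and 11 rose and 4 fell in the rcoA deletion (83.3%). Among the 18, 5 are also described as sugar symporters, so their identity is uncertain, and these 5 include 1 of the 2 that fell in the clrB deletion and 3 of the 4 that fell in the rcoA deletion. Of 19 genes of acetate and acetyl-CoA use 4 rose and 1 fell in the clrB deletion (26.3%), and 4 rose and 11 fell in the rcoA deletion (78.9%). There acetyl-CoA synthetase PDE_08414, which activates acetate, fell from 387 to 408 FPKM to 201 to 205 (-0.96, SE 0.09, adjusted p = 2.05e-05). These counts in the clrB deletion moved with single libraries as the member counts did, to 6, 6 and 6 higher without clrB deletion replicate 2 and 2, 1 and 0 without clrB deletion replicate 3.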

How the data were processed

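Transcript levels of 9 libraries were taken as FPKM, which the authors computed and deposited to 2 decimals with KEGG orthology and NCBI nr descriptions beside each gene. Per the labels' protocols, oligo(dT)-selected RNA was turned into cDNA and cut with NlaIII and MmeI into short tags, so the length term of FPKM can distort levels between genes, while it cancels in a ratio of 1 gene between libraries. Not given in the sources used here are the aligner, the way tags were counted, the lengths used and the genome build. The table has 3 further value columns of no sample used here. None of the 9907 identifiers matched the reference table of 9964 genes (0 matches), so no coordinates or sequences are printed.

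Groups came from the labels. Differences of log2(FPKM + 1) were tested in R 4.3.3 with limma 3.58.1, in 1 linear model over the 3 strains with a spread that depends on the mean level, for the 9097 genes with a mean of at least 1 FPKM. P-values were two-sided, adjusted over all these genes by the Benjamini-Hochberg method and called under 0.05. The procedure was tested on simulated data. Genes described in the text were the 61 members with a mean of at least 100 FPKM, or a call of at least 1 on the log2 scale, or alone in their step. Others are named as chosen after their values were seen. The same holds for the 3 hexokinases without a call, PDE_05337, PDE_09272, PDE_04693, PDE_05569 and the NAD isocitrate dehydrogenases. It also holds for the alpha genes of succinyl-CoA synthetase, PDE_08560, PDE_02324, PDE_03272, PDE_00303, PDE_08687 and the genes of neighbouring pathways. The members and lists were chosen with earlier results of these data known. For each comparison 19 alternatives were run, over pseudocounts, filters, scalings, the replicate number, the strains in the fit and each library left out.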

Additional observations from a re-analysis of the deposited data

Results flagged for a closer look

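Of the tested members 2 were called in opposite directions in the deletions and also differed between them. Hexokinase PDE_07688 was 1.68 higher in the clrB deletion than in the rcoA deletion on the log2 scale (SE 0.21, adjusted p = 0.000148 with limma), with levels of 55.9 to 99.3 FPKM against 21.8 to 28.9. The E1 gene of 2-oxoglutarate dehydrogenase, PDE_08580, was 0.98 higher (SE 0.12, adjusted p = 0.000114), with 175 to 217 FPKM against 91.5 to 103. For both genes the 3 clrB deletion libraries lay above and the 3 rcoA deletion libraries below all wild type libraries. The differences between the deletions were called under each of the 19 alternatives. The call of PDE_07688 in the clrB deletion was lost under 7 alternatives, and that of PDE_08580 in the rcoA deletion under 9.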

How the results depend on the processing

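The count of members called in the clrB deletion, 26, was 16 with only both strains in the fit and ranged from 10 to 54 when 1 library was left out. Of the 26 genes, 25 were also called in the same direction without clrB deletion replicate 2, and 10 were called under every alternative that tested them. The count in the rcoA deletion, 82, ranged from 67 to 89 with 1 library left out, and 62 genes were called under all alternatives. Between the deletions the count was 79, with a range of 59 to 79, and 53 genes were called throughout. With a replicate block the 3 counts were 23, 82 and 77. Same-numbered libraries of different strains had correlations of their deviations from the strain means between -0.161 and 0.341. Not each was over 0.1, and not every library correlated best with its own number. No pairing was used in the main fit. With 3 libraries per strain, these correlations cannot exclude a shared batch or culture round. Among genes of the pathway roles, PDE_09272, described as a citrate synthase, fell by 0.46 in the rcoA deletion (limma adjusted p = 0.0316) and stood at 0.08 after quantile normalization (adjusted p = 0.681, the highest of its alternatives). With quantile normalization the sign also turned for the weakly expressed PDE_07246 and PDE_09549, which are not described above. The cause of these shifts was not tested. Low FPKM limit what can be seen, since 11 members were not tested and depth is unknown.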

Other observations

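A list of 21 genes for storage sugars and glycerol, matched by words of their descriptions, was counted in the same limma fit. In the clrB deletion 8 rose and 2 fell (47.6%, against 21.8% of all tested genes), and in the rcoA deletion 12 rose and 2 fell (66.7%, near the 64.5% of all tested genes). The 8 became 3, 5 and 4 without wild type replicates 1 and 2 and rcoA deletion replicate 2, and 3 without clrB deletion replicate 3. The list also holds glycogen synthase kinase and diacylglycerol kinase, which share words with it. These genes were picked for naming after their values were seen.

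The genes that fell in the clrB deletion are both described as acting on glycogen, but other glycogen genes were not called lower there. PDE_04801, described as a glycogen debranching enzyme and as a signal recognition particle receptor subunit, rose (0.82, SE 0.13, adjusted p = 0.00378). The second glycogen phosphorylase PDE_02847 was not called (-0.28, adjusted p = 0.0522), nor were the other debranching enzymes and the glycogenins. Glycogen phosphorylase (PDE_00122), which frees glucose 1-phosphate from glycogen, read 428.7, 419.6 and 425.2 FPKM in the wild type, 232, 299.4 and 219 in the clrB deletion and 445, 411 and 354 in the rcoA deletion. The clrB libraries lay below all others (-0.77, SE 0.14, adjusted p = 0.00711), and the rcoA deletion was not called (adjusted p = 0.638). Glycogen synthase (PDE_09899), which builds the chains, read 98.0 to 106 FPKM in the wild type, 70.2 to 81.4 in the clrB deletion (-0.48, SE 0.09, adjusted p = 0.0103) and 108 to 120.4 in the rcoA deletion, where it was not called (adjusted p = 0.157).

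Of 6 genes described as synthases of trehalose, a storage and stress sugar of fungi, 4 rose and 0 fell in each deletion. The other 2 were not called. With clrB deleted 21.8% of all tested genes were called, and with rcoA deleted 64.5%. A count of 4 in 6 is therefore near the background for rcoA and above it for clrB. The genes without a call were PDE_00889 and PDE_01411 in the clrB deletion and PDE_05219 and PDE_01411 in the rcoA deletion. The trehalose 6-phosphate synthase PDE_08181 read 32.6 to 38.7 FPKM in the wild type, 44.9 to 46.6 in the clrB deletion (0.35, SE 0.10, adjusted p = 0.0312) and 73.0 to 86.6 in the rcoA deletion (1.13, SE 0.10, adjusted p = 1.04e-05). PDE_00891, described as synthase or phosphatase of the same pathway, read 20.1 to 25.9, 34.9 to 36.6 and 59.8 to 66.9 FPKM (0.63, adjusted p = 0.00484, and 1.41, adjusted p = 4.27e-06). In both genes the strains did not overlap. In glycerol metabolism the glycerol-3-phosphate dehydrogenase PDE_06831, of the quinone-linked type, was called in the rcoA deletion, where it read 161 to 195 FPKM against 53.3 to 59.3 in the wild type (1.63, SE 0.12, adjusted p = 4.68e-06).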
